A study of Homo sapiens with 4 samples.

Results

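The circRNAs of 5 receptor tyrosine kinase genes, MET, EGFR, ERBB2, IGF1R and FGFR2, were compared in drug-resistant NSCLC cell lines and their parent cell lines. The rows that carry one of these host gene names were taken from the circRNA table, which gave 10 circRNAs of 3840 and 5 host genes of 2279. IGF1R had 5 of these circRNAs, MET had 2, and EGFR, ERBB2 and FGFR2 had 1 each. Another 3 transcripts of the 54708 in the table of lncRNA transcripts carry the name EGFR or IGF1R.

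The resistant cells were HCC827/R and A549/R, and the parent cells were HCC827 and A549, all human lung adenocarcinoma lines with 1 RNA library each. HCC827 carries an activating deletion in EGFR, whereas A549 has unmutated EGFR. The sample labels describe both resistant lines as cisplatin-resistant. The paper instead describes the HCC827 derivative (HCC827/GR there) as resistant to gefitinib, which blocks the kinase of EGFR, and the A549 derivative (A549/DDP) as resistant to cisplatin. According to its methods, resistance was raised by stepwise dosing and the drugs were withdrawn before the experiment. RNA was sequenced after removal of ribosomal RNA. With 1 library per line there is no replicate error and no p-value, and every interval below covers counting error only.

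Receptor tyrosine kinases are membrane receptors that carry a growth factor signal across the membrane by phosphorylating tyrosines on themselves and on adaptor proteins. MET is the receptor of hepatocyte growth factor, EGFR the receptor of the epidermal growth factor family, and ERBB2 the partner receptor of EGFR that has no known ligand of its own. IGF1R is the receptor of insulin-like growth factors and FGFR2 a receptor of fibroblast growth factors. In lung adenocarcinoma, EGFR is the target of gefitinib, and amplification of MET is a known route by which EGFR-mutant cells escape that drug. Gene copy number was not measured here. A circRNA is a closed RNA circle that forms when the end of an exon is joined back to the start of the same or an earlier exon. A ciRNA is a circle left from an excised intron.

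The circRNA table gives estimated counts. They summed to 1587755 in HCC827/R, 2098414 in HCC827, 1960456 in A549/R and 1760400 in A549. Levels below are scaled counts, that is CPM with the circRNA total of the library as the denominator, and levels of different circRNAs are compared only by the deposited FPKM (fragments scaled to the length of the spliced circle and to library size). The counts grew with the length of the circle. In HCC827/R the median count was 67.3 for circles under 300 bases and 452 for circles of 1200 bases or more, while the median FPKM was 12.5 and 11.0. Across all 3840 circRNAs, spliced length and summed counts had a Spearman correlation of 0.52, as a description of points that share libraries and genes. A count of reads across the back-splice junction alone would not depend on length in this way. How much of each count is linear mRNA over the same exons was not tested, as the sources used here do not name the counting tool. The values are therefore read as RNA over the exons of each circle, or over the intron for a ciRNA.

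**Figure D1:**
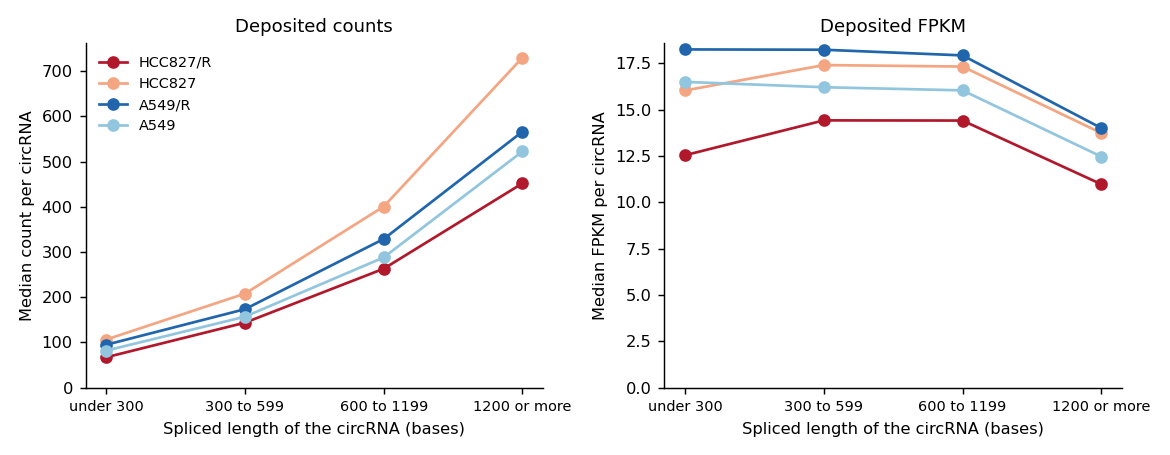
Median deposited count (left) and median deposited FPKM (right) of all 3840 circRNAs, by spliced length in bases, with 1 line per library. The counts increase over the 4 length classes in every library, and the median FPKM stays between 11.0 and 18.3.

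HCC827/R differed from the rest of the libraries in its zeros. There, 574 circRNAs (14.9%) were at 0, against 62 in HCC827, and 15 were at 0 in A549/R, against 7 in A549. Of the circRNAs with 100 counts or more in HCC827, 213 had under 3 in HCC827/R, and 0 were so in the opposite direction. Between A549/R and A549 there were 0 in either direction. Of 9 epithelial markers, KRT7 and ESRP1 had circRNAs, with summed scaled counts of 1086 in HCC827/R, 198 in HCC827, 575 in A549/R and 837 in A549. KRT7 had 702 in HCC827/R, 114 in HCC827, 574 in A549/R and 836 in A549. ESRP1 was higher in the HCC827 libraries, with 384 in HCC827/R and 83.9 in HCC827, while A549/R and A549 had under 3 counts each. Of 6 mesenchymal markers, ZEB1 and FN1 had circRNAs, and both were at 0 in HCC827/R. ZEB1 was at 79.1 in HCC827, 53.3 in A549/R and 59.6 in A549. FN1 was at 2.86 in HCC827, close to the floor, and at 3.06 in A549/R, against 97.1 in A549. Of the alveolar type 2 markers LPCAT1 had circRNAs, with scaled counts of 2016 in HCC827/R, 606 in HCC827, 156 in A549/R and 263 in A549. Leukocyte, fibroblast and endothelial markers had 0 circRNAs among those analysed. The part of these differences in the results below was not tested.

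RNA over the MET circles was far more abundant in HCC827/R than in any other library. RNA over the ERBB2 circle and over the EGFR circle was also higher there than in HCC827, and the sum over the IGF1R circles was lower. The 5 genes together held 1.42% of all circRNA counts in HCC827/R, against 0.668% in HCC827. Most of the HCC827/R share was MET, which alone held 1.15% there, against 0.177% in HCC827. IGF1R went the other way, with 0.158% in HCC827/R, against 0.440% in HCC827. They held 0.505% in A549/R, against 0.502% in A549. A gene was called higher or lower at a ratio of 2 or more or 0.5 or less after 3 counts were added in each library, among genes with 10 counts or more over both libraries. In HCC827/R over HCC827, MET and ERBB2 were called higher, IGF1R was called lower, EGFR passed neither limit, and FGFR2 had 0 counts in both. Of 2211 host genes, 13.2% were called higher and 29.7% lower in this comparison, so the 1 lower call of 4 lies near the share of all host genes. The median log2 ratio of the 4 genes was 1.25, beside -0.23 for all host genes. In A549/R over A549, ERBB2 and FGFR2 were called lower and 0 of the 5 higher, where 8.39% of 2253 host genes were called lower and 2.89% higher. The median log2 ratio of the 5 genes was 0.03, as it was for all host genes (0.03).

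**Figure D2:**
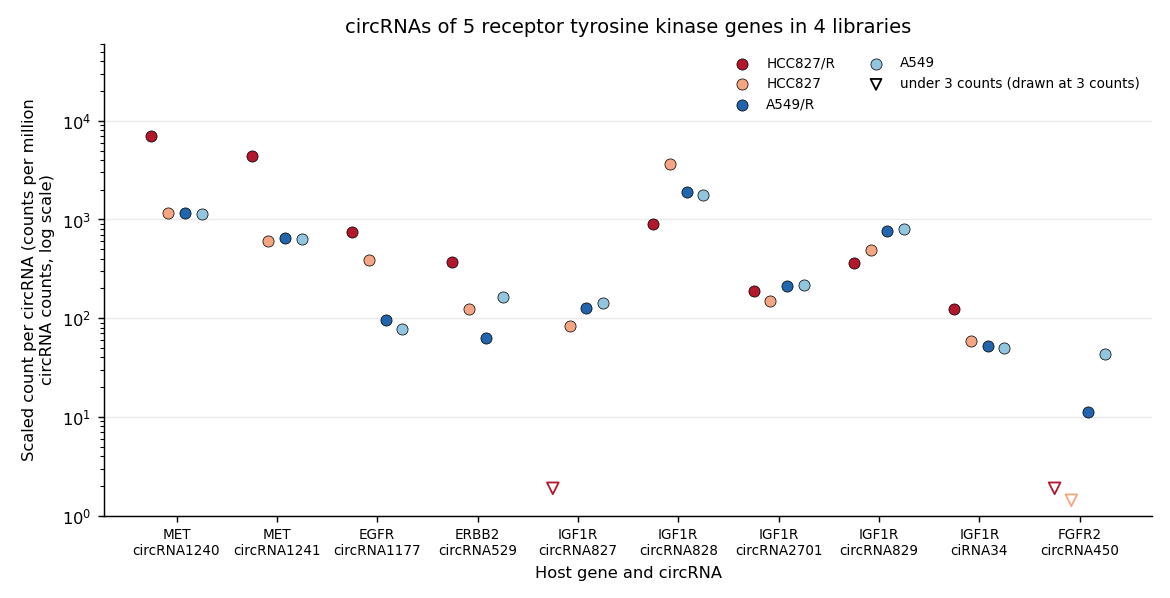
Scaled count (CPM of circRNA counts, log axis) of the 10 circRNAs in the 4 libraries, 1 point per library, with open triangles where a library had under 3 counts. Both MET circRNAs lie at 4449 or more in HCC827/R and between 604 and 1166 in the other 3 libraries.

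**Figure D3:**
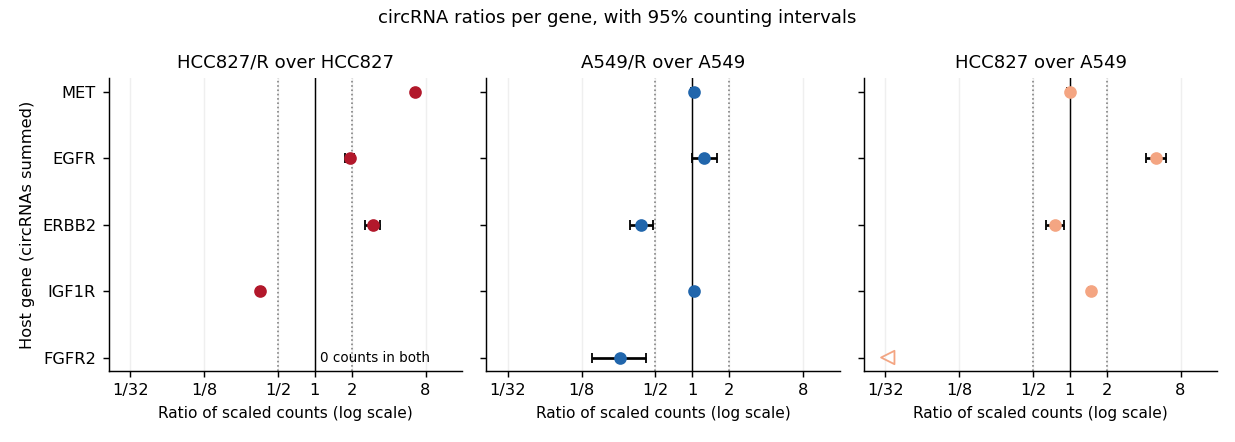
Ratio of scaled circRNA counts per gene (log axis) in 3 comparisons, with bars for the 95% counting interval and dotted lines at 0.5 and 2. The open triangle is an upper bound of 0.0327, since FGFR2 had 0 counts in HCC827. MET stands at 6.52 in HCC827/R over HCC827 and close to 1 in the other panels.

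Both circRNAs of MET were higher in HCC827/R. circRNA1240 is made of 1 exon of 1214 bases (chromosome 7, 116699071 to 116700284, plus strand), the exon that holds the start codon of MET. It had 11258 counts in HCC827/R, 2444 in HCC827, 2285.5 in A549/R and 1989 in A549. circRNA1241 joins 4 exons farther along the gene (chromosome 7, 116757437 to 116759490) into a circle of 502 bases. It had 7064 counts in HCC827/R, 1268 in HCC827, 1261 in A549/R and 1122.5 in A549. The sources used here do not state the genome build of these positions, and all 10 circles lie inside the gene of their name in RefSeq on GRCh38.p14.

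After scaling, circRNA1240 was 6.09 times as high in HCC827/R as in HCC827 (95% counting interval 5.83 to 6.36). circRNA1241 was 7.36 times as high (6.93 to 7.82). The intervals of the 2 ratios do not overlap, although both circles were raised strongly. For the sum over MET, scaled counts were 11539.6 in HCC827/R and 1769 in HCC827, a ratio of 6.52 (6.30 to 6.76). Its ratio was the 32nd highest of 2211 host genes, and 1.45% of host genes had one as high. By FPKM, circRNA1241 had 626 and circRNA1240 413 in HCC827/R, ranks 6 and 19 of 3840 circRNAs. In HCC827 they had 88.9 and 70.8, ranks 170 and 275.

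Outside HCC827/R, the level of MET differed little between libraries. In A549/R its scaled count was 1809, against 1767 in A549, a ratio of 1.02 (0.975 to 1.07). In HCC827 it was 1769, against 1767 in A549, a ratio of 1.001 (0.954 to 1.05). Scaling to the median ratio of host genes lowers this last ratio to 0.824. Shares of counts within a gene depend on circle length, so they are compared only between libraries. By FPKM, circRNA1240 was below circRNA1241 in every library. The share of circRNA1240 in the MET counts was 61.4% in HCC827/R (exact binomial interval 60.7 to 62.2), against 65.8% in HCC827 (64.3 to 67.4). It was 64.4% in A549/R (62.9 to 66.0), against 63.9% in A549 (62.2 to 65.6). The share in HCC827/R was thus below that in HCC827 by more than counting error, and the share in A549/R was not distinguishable from that in A549. In HCC827/R over HCC827 the log2 ratios of both circles lay 0.27 apart, which is close for circles of the same gene. Among 779 genes with more than 1 tested circRNA the median range was 1.26, and 87.9% had a range as wide as that of MET.

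RNA over the EGFR circle was higher in both HCC827 libraries than in both A549 libraries. This circle, circRNA1177, joins 2 exons into 249 bases (chromosome 7, 55163733 to 55165437, plus strand). It had 1185 counts in HCC827/R, 814 in HCC827, 190 in A549/R and 136 in A549. The lowest HCC827 library held several times the counts of the highest A549 library. In HCC827 the scaled count was 388, against 77.3 in A549, a ratio of 5.02 (4.18 to 6.07). Of 2258 host genes, 15.9% were called higher and 12.6% lower in HCC827 over A549, and 1.73% had a ratio as high as that of EGFR. Under the median ratio scaling the ratio was 4.13. That scaling turns the balance of all calls in this comparison, with 208 higher and 373 lower in place of 360 and 284, because it shifts every log2 ratio by -0.28.

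Within the HCC827 pair, EGFR had a scaled count of 746 in HCC827/R, against 388 in HCC827. The ratio was 1.92 (1.76 to 2.11), just under the limit of 2, and scaling to the median ratio carries it past the limit. In A549/R the scaled count was 96.9, against 77.3 in A549, a ratio of 1.25 (1.001 to 1.58) whose interval nearly reaches 1. By FPKM, circRNA1177 stood at 212 in HCC827/R (rank 38 of 3840), 115 in HCC827 (rank 103), 34.2 in A549/R and 24.9 in A549 (rank 1200). In HCC827/R it was below both MET circles per length, whereas in HCC827 it was above both.

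ERBB2 had opposite directions in the resistant lines. Its circle, circRNA529, joins 5 exons into 676 bases (chromosome 17, 39708321 to 39710481, plus strand). It had 586 counts in HCC827/R, 262 in HCC827, 124 in A549/R and 291 in A549. The scaled count was 369 in HCC827/R, against 125 in HCC827, a ratio of 2.96 (2.55 to 3.43). In A549/R it was 63.3, against 165 in A549, a ratio of 0.383 (0.308 to 0.474). Among host genes, 6.20% had a ratio as high in the HCC827 pair and 5.10% one as low in the A549 pair. The parents were closer to each other, with 125 in HCC827 and 165 in A549 and a ratio of 0.755 (0.637 to 0.896).

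The 3 genes with their highest level in HCC827/R are shown by the 250 bases before their RefSeq start (GRCh38.p14), because they moved in the same direction there. Capitals mark the GC box GGGCGG on either strand, the letters bound by SP1-type factors, and the binding of no factor was measured. The windows are chromosome 7, 116671946 to 116672195 for MET, chromosome 7, 55018767 to 55019016 for EGFR and chromosome 17, 39687844 to 39688093 for ERBB2.
MET: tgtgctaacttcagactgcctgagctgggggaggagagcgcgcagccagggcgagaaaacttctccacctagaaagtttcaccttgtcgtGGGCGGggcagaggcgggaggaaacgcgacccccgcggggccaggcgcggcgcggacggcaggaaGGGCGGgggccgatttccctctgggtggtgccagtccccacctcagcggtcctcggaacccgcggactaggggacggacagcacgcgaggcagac
EGFR: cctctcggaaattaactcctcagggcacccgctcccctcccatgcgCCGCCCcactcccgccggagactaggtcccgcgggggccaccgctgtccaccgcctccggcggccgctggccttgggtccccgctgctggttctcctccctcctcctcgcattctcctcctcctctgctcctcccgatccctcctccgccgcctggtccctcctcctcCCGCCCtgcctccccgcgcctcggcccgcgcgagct
ERBB2: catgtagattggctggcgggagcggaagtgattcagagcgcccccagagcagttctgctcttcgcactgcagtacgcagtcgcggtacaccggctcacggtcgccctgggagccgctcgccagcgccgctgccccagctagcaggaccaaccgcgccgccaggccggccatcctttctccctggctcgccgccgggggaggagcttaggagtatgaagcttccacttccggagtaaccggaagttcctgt
The MET and EGFR windows each held 2 GC boxes and the ERBB2 window 0. The start site used in these cells was not measured, so a window need not hold the promoter in use. The ERBB2 values in particular may not describe its main promoter. Of 35116 RefSeq promoter windows of this length, 42.6% held at least 1. TATAAA, searched on both strands and not overlapping the GC box, was found in 0 of the 3 windows and in 10.7% of all windows. The share of G and C was 68.4% for MET, 73.6% for EGFR and 65.6% for ERBB2, against a median of 58%.

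IGF1R was lower in HCC827/R than in HCC827 and was close to the same level in A549/R and A549. Its summed scaled count was 1581 in HCC827/R, against 4399 in HCC827, a ratio of 0.360 (0.344 to 0.376). In A549/R it was 3069, against 2962 in A549, a ratio of 1.04 (0.998 to 1.08). In HCC827 over A549 the ratio was 1.49 (1.44 to 1.54). The lower sum in HCC827/R depended on the counts placed on circRNA828, which shares exons with other circles of the gene. That circle held most of the IGF1R counts in every library. Summed with the circles that share its exons, it had a ratio of 0.285 in HCC827/R over HCC827. Without circRNA828 the ratio in the HCC827 pair was 0.863, which ends the call. Without it the ratio of HCC827 over A549 was 0.650, which turns its direction.

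The 5 circles of IGF1R lie in order along the plus strand of chromosome 15 and did not move together in the HCC827 pair. circRNA827 is 1 exon of 546 bases (98707562 to 98708107) with 0.5 counts in HCC827/R, 173 in HCC827, 247 in A549/R and 249 in A549. It was the only circle of the 10 with counts in HCC827 and almost none in HCC827/R, at least 43.6-fold lower when 3 counts are taken as the floor in HCC827/R. It is 1 of the 213 circRNAs with 100 counts or more in HCC827 and under 3 in HCC827/R. circRNA828 holds that exon and the 3 exons of circRNA2701 (98707562 to 98899621, 1153 bases). Its counts were 1440 in HCC827/R, 7589 in HCC827, 3745 in A549/R and 3098 in A549. By FPKM it was the highest of the 10 circles in HCC827 (232), A549/R (146) and A549 (123), and it stood at 55.6 in HCC827/R. Its scaled count in HCC827/R was 3.99-fold lower than in HCC827 (3.77 to 4.22), and HCC827 was 2.06 times as high as A549 (1.97 to 2.14).

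circRNA2701 (98891325 to 98899621, 607 bases) had 302.5 counts in HCC827/R, 312 in HCC827, 416 in A549/R and 385 in A549. Its ratio in HCC827/R over HCC827 was 1.28 (1.09 to 1.503), in the direction opposite to the circle that contains it. circRNA829 (98916672 to 98924684, 4 exons, 786 bases) had 572 counts in HCC827/R, 1033 in HCC827, 1507 in A549/R and 1396 in A549. Its ratio in the HCC827 pair was 0.732 (0.660 to 0.811). The intronic ciRNA34 (98943053 to 98948553, 5501 bases) had 196 counts in HCC827/R, 123 in HCC827, 102 in A549/R and 87 in A549. It was 2.11 times as high in HCC827/R as in HCC827 (1.67 to 2.66), and thus passed the limit in the direction opposite to circRNA828.

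The spliced lengths of circRNA827 and circRNA2701 add up to 1153 bases, the length of circRNA828, so reads on the shared exons may be placed on more than 1 circle. Of the circRNAs that overlap another one, 2.95% had whole counts in all 4 libraries, against 81.4% of the others. The sources used here do not say how counts were divided. If no read is counted more than once, the sum of the 3 overlapping circles does not depend on how counts are divided among them. The sum was not whole in A549/R (4408.33), so some reads may also be shared outside the 3. Its ratio in HCC827/R over HCC827 was 0.285 (0.271 to 0.301). In A549/R over A549 it was 1.06 (1.02 to 1.11).

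**Figure D4:**
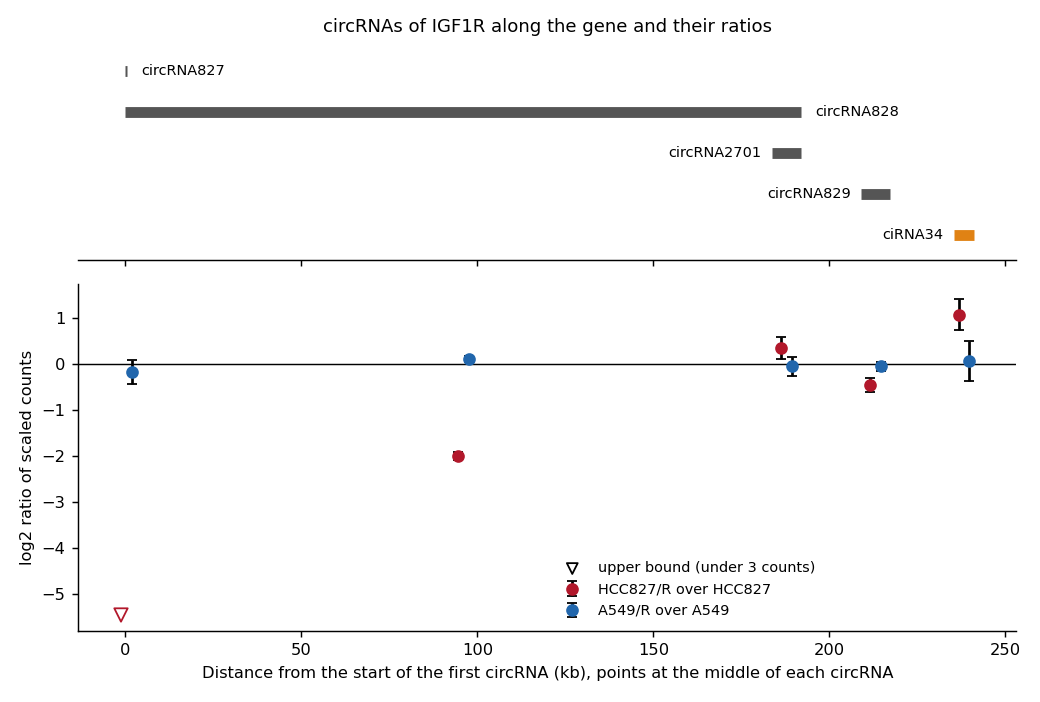
Extent of the 5 IGF1R circles (top, grey exonic circRNAs, orange intronic ciRNA) in kb from the start of the first, and their log2 ratios with 95% counting intervals (bottom), the open triangle being an upper bound. In HCC827/R over HCC827 the ratios run from below -5 to 1.07, and in A549/R over A549 all lie between -0.16 and 0.12.

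The circles of IGF1R thus differed among themselves in the HCC827 pair by 6.31 on the log2 scale (3 counts added), from circRNA827 to ciRNA34. The low end is a circle near 0 counts whose share of the overlapping reads is unknown. The high end is the intronic circle, which was low by FPKM. Among 779 genes with more than 1 tested circRNA, 2.44% had a range as wide, and the median was 1.26. In A549/R over A549 the range of IGF1R was 0.28, beside a median of 0.26. The share of circRNA828 in the IGF1R counts was 57.3% in HCC827/R (55.4 to 59.3), against 82.2% in HCC827 (81.4 to 83.0). It was 62.2% in A549/R (61.0 to 63.5), against 59.4% in A549 (58.1 to 60.8). The intronic ciRNA34 held 7.81% in HCC827/R (6.79 to 8.92), against 1.33% in HCC827 (1.11 to 1.59). As for MET, these shares of counts depend on circle length and are compared only between libraries.

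FGFR2 had counts in A549/R and A549 and 0 in both HCC827 libraries. Its circle, circRNA450, joins 4 exons into 639 bases (chromosome 10, 121538592 to 121565704, minus strand). It had 0 counts in HCC827/R and HCC827, 22 in A549/R and 77 in A549. A count of 0 allows up to 3 counts, or a scaled count of 1.89 in HCC827/R and 1.43 in HCC827. The scaled count was 11.2 in A549/R, against 43.7 in A549, a ratio of 0.257 (0.152 to 0.417). In the A549 pair 2.62% of host genes had a ratio as low. HCC827 was at least 30.6-fold lower than A549.

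By single circle, the 10 circRNAs gave 4 higher and 2 lower calls of 9 tested in HCC827/R over HCC827. All circRNAs gave 13.1% higher and 31.8% lower of 3745 tested. Between A549/R and A549 they gave 0 higher and 2 lower of 10, beside 3.08% higher and 7.44% lower of 3802. In HCC827 over A549 they gave 2 higher and 1 lower of 10, beside 15.6% higher and 12.6% lower of 3811.

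**Figure D5:**
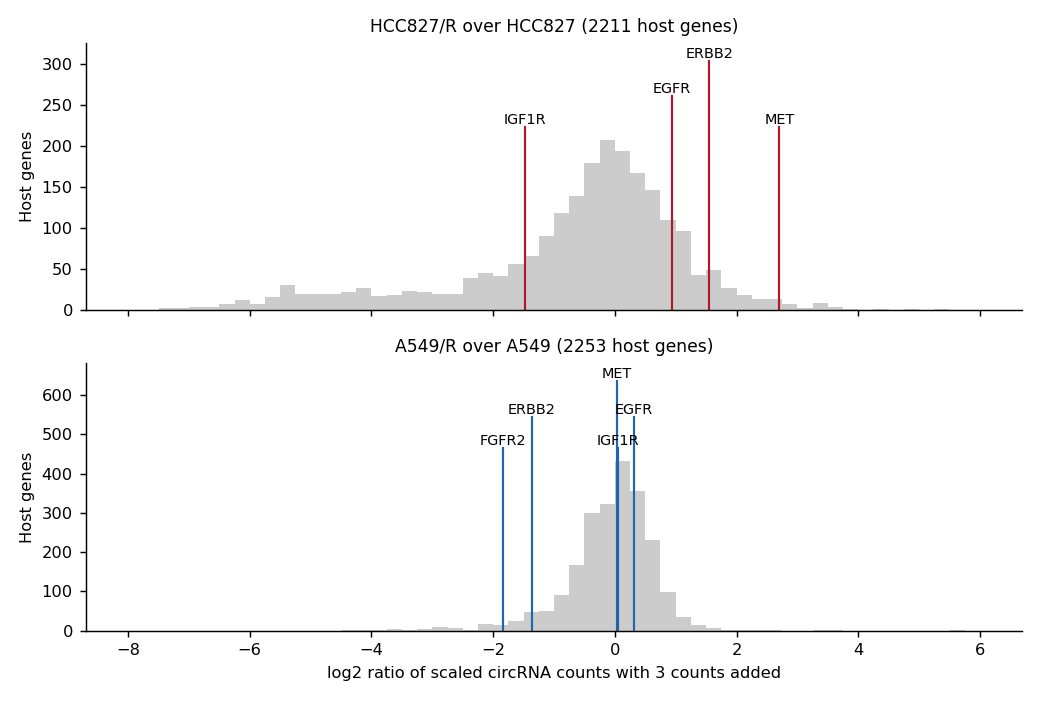
Distribution of log2 ratios of scaled circRNA counts (3 counts added) over host genes with 10 counts or more over both libraries, for HCC827/R over HCC827 (top) and A549/R over A549 (bottom), with vertical lines at the receptor genes. MET lies at 2.70 in the upper panel and at 0.03 in the lower one, and FGFR2, untested in the HCC827 pair, at -1.83 in the lower panel.

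The host genes whose levels over the 4 libraries lay nearest to each receptor were found by the Euclidean distance of centred log2 scaled counts among 2249 genes with 30 counts or more. Over only 4 libraries this describes likeness of levels and nothing more. For MET they were PRKCE, MAN2B2 and NMNAT1 at distances of 0.24 to 0.33 (median of all genes 2.54). MAN2B2 had scaled counts of 122 in HCC827/R, 14.3 in HCC827, 13.3 in A549/R and 12.5 in A549. For EGFR they were ZNF680, SMARCA4 and SMG1P3. SMARCA4, a chromatin remodelling ATPase, had 662 in HCC827/R, 348 in HCC827, 94.4 in A549/R and 85.8 in A549. For ERBB2 they were TC2N, PTTG1IP and FBRS, and for IGF1R they were ACADM, ARIH1 and DHTKD1. For FGFR2 they were ADAM19, MARCH2 and ST8SIA4, at distances of 0.25, 0.32 and 1.04. Like FGFR2, these genes were at 0 in HCC827/R and HCC827, so their likeness rests in part on shared zeros.

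Around the receptors, circRNAs were found for 4 of 49 other receptor tyrosine kinases, 13 of 43 adaptors and kinases below the receptors, 9 of 32 negative regulators and 0 of 21 ligands. Of the other receptors, 0 of 3 tested passed the limit in HCC827/R over HCC827. Between A549/R and A549, NTRK3, the receptor of neurotrophin 3, was lower and the other 3 passed neither limit. NTRK3 had 635 counts in A549/R, against 3642 in A549, a ratio of 0.157 (0.144 to 0.170), and was at 0 in HCC827.

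Of the adaptors and kinases, 1 of 12 was higher and 2 lower in HCC827/R over HCC827. GRB14, an adaptor that binds insulin-family receptors and inhibits them, had 205 counts in HCC827/R, against 34 in HCC827, a ratio of 7.97 (5.52 to 11.8). GRB10, its close relative, had 52 in HCC827/R, against 384 in HCC827, a ratio of 0.179 (0.131 to 0.240). SOS2, an exchange factor that activates RAS, had 1 count in HCC827/R, against 163 in HCC827. Of the 13 tested, 0 passed either limit in A549/R over A549. The median log2 ratio of this list was -0.07 in the HCC827 pair and -0.20 in the A549 pair, beside -0.23 and 0.03 for all host genes.

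Of the negative regulators, 1 of 9 was higher and 2 were lower in HCC827/R over HCC827. CBLB had 238 counts in HCC827/R, against 142 in HCC827, a ratio of 2.22 (1.79 to 2.75). Its relative CBL, a ubiquitin ligase that marks activated EGFR and MET for degradation, had 85 in HCC827/R, against 306 in HCC827, a ratio of 0.367 (0.285 to 0.468). ADAM10 is counted in this list although it also sheds receptor ligands. It had 55 in HCC827/R, against 248 in HCC827, a ratio of 0.293 (0.215 to 0.394). Between A549/R and A549, 0 of 9 passed either limit. The shares of all host genes given above hold for these lists too, 13.2% higher and 29.7% lower in HCC827/R over HCC827. In A549/R over A549 the shares were 2.89% higher and 8.39% lower. With so few members, the counts of calls say nothing particular to the lists in either pair.

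In HCC827 over A549, 1 of 4 other receptors was higher and 1 lower, 1 of 13 adaptors and kinases was higher and 4 lower, and 2 of 9 negative regulators were higher and 0 lower. All host genes had 15.9% higher and 12.6% lower in this comparison. RYK, a receptor of WNT proteins, had 1751 counts in HCC827, against 529 in A549, a ratio of 2.78 (2.52 to 3.07). PIK3CB, a catalytic subunit of PI3-kinase, had 1363 in HCC827, against 484 in A549, a ratio of 2.36 (2.13 to 2.63). GRB2, GRB14, PIK3R1 and AKT2 were lower, with ratios between 0.0892 and 0.421. The lowest was PIK3R1, close to the floor with 5 counts in HCC827, against 47 in A549 (0.0277 to 0.223). CBL and PTPN1 were higher, with ratios of 3.89 and 2.84.

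Of the genes next to MET on chromosome 7, TES and ST7 had circRNAs. In HCC827/R over HCC827, TES had a ratio of 4.16 (3.84 to 4.50) and ST7 one of 1.13 (1.05 to 1.23), beside 6.52 for MET. Of the genes listed around EGFR, GBAS had a ratio of 1.78 (1.55 to 2.05) in the same comparison, beside 1.92 for EGFR and the 0.179 of GRB10.

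In the table of lncRNA transcripts, 3 unannotated transcripts carry a member's name. MSTRG.88579.1 has 2 exons and 773 bases on the strand of EGFR, and the authors class it as intronic (chromosome 7, 55065872 to 55067652). Its bases amounted to 54.9 read pairs in HCC827/R, 134 in HCC827, 29.4 in A549/R and 6.78 in A549. As FPKM this was 4.83 in HCC827/R, 9.96 in HCC827, 2.48 in A549/R and 0.610 in A549. Per read pair aligned, HCC827/R had 0.484 times the level of HCC827 (0.347 to 0.667), while the exonic circle of EGFR was 1.92 times as high. A549/R had 4.07 times the level of A549 (1.67 to 10.5), and HCC827 had 16.3 times that of A549 (7.49 to 40.2). The other 2 transcripts had at most 15 read pairs in any library. MSTRG.88583.1, antisense to EGFR (chromosome 7, 55247745 to 55247963), had 15 in HCC827 and 0 in the other 3 libraries. MSTRG.34792.1, within IGF1R (chromosome 15, 98671868 to 98676447), had 0 in HCC827/R, 10.9 in HCC827, 11.4 in A549/R and 2.36 in A549. HCC827/R also stood apart in this table, with 7807 transcripts above 0 FPKM, against 29256 in HCC827, and its part in the EGFR and IGF1R values was not tested.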

How the data were processed

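Ribosomal RNA-depleted RNA of the 4 cell lines was sequenced as paired ends, 1 library each. The authors deposited estimated counts and FPKM per circRNA, and the sources used here do not name the tool behind them. The deposited FPKM imply library totals of 22478736, 28415200, 22284739 and 21900963 reads in HCC827/R, HCC827, A549/R and A549. They also imply spliced lengths, which were rounded to whole numbers. Per the paper, the authors trimmed reads with Cutadapt, aligned them with Bowtie 2 and TopHat2 and deposited StringTie mean coverage (signal) and FPKM of lncRNA transcripts. The submitters' processing notes name TopHat. The sources used here state neither their versions nor a build. Columns of other samples numbered 0.

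Counts were summed per host gene and scaled to the circRNA total of each library. Ratios have exact conditional Poisson intervals at 95%, on counts rounded to whole numbers. Calls used a floor of 3 counts, a minimum of 10 counts over both libraries and the fold limits of the study (2 and 0.5), without its P value. No test was run, as each group had 1 library. Read pairs were coverage times length over 302 bases, taken as 1 pair of 151-base reads. The design's rule named all circRNAs of the 5 genes, transcripts with 20 read pairs or more in full, the 3 nearest host genes, and list members past the fold limits. The transcripts MSTRG.88583.1 and MSTRG.34792.1 fall outside that rule and were given after their values were seen. Members, gene lists and markers were chosen with earlier results of these data known, and 1 alternative was added after the data were seen. Software was scipy 1.17.1, numpy 2.4.6, pandas 2.3.3, matplotlib 3.10.9 and Python 3.11.15.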

Additional observations from a re-analysis of the deposited data

Results flagged for a closer look

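ERBB2 circRNA went in opposite directions in the resistant lines, with a ratio of 2.96 in HCC827/R over HCC827 and 0.383 in A549/R over A549, and neither counting interval reached 1. The difference between the ratios was not tested, since each line had 1 library.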

How the results depend on the processing

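Among the 58 member ratios recomputed under an alternative, 51 stayed on the same side of 1 and 2 moved by over 1.5 times. Both of these were IGF1R without its most abundant circRNA, at 0.863 in HCC827/R over HCC827 and 0.650 in HCC827 over A549. The other ratios that crossed 1 were those of MET and IGF1R in comparisons where they lay close to 1. The number of the 5 genes past a fold limit was 3 in HCC827/R over HCC827, 2 in A549/R over A549 and 2 in HCC827 over A549. Leaving out the most abundant circRNA of each gene, taken by counts, gave 1, 0 and 0 in the same order. For MET this left out circRNA1240, although circRNA1241 was higher by FPKM. EGFR, ERBB2 and FGFR2 have 1 circRNA and then have no value, and IGF1R kept a value in HCC827/R over HCC827 but passed no limit. Keeping only circRNAs at 10 counts or more in both libraries, an alternative chosen after the data were seen, gave 1 in HCC827 over A549, where FGFR2 then has no value. Median-ratio scaling, the total without the members and the deposited FPKM gave between 2 and 4. The numbers of host genes called, higher and lower together, stayed within 1.5 times under the alternatives run. Taken apart, higher calls in HCC827 over A549 were 208 under median-ratio scaling in place of 360, and lower calls 373 in place of 284. With 1 library per line, the spread between cultures is unknown, and values under 3 counts are limits of depth.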
